A study of Homo sapiens with 4 samples.

Results

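The RAB small GTPases were examined in CAL27 cells, a human cell line from an oral squamous carcinoma, by RNA sequencing of polyadenylated RNA. Cells of one group were labelled as overexpressing the chemokine CCL20 after lentiviral transduction, and the cells they were set against were labelled negative control, with 2 libraries in each group, harvested after 48 hours. What the control cells carried, and whether a line was 1 clone, is not stated in the labels. Of 29437 genes listed, 64 had a RAB gene name (RAB, a number and at most a letter and a further digit), and the 46 of these with a mean of at least 1 FPKM over the 4 libraries are the genes described here. FPKM divide the reads of a gene by its exonic length and by the total counted in the library. The mean FPKM therefore chose the members and is given only as a description. Just inside the limit was RAB42, with 0.947 and 0.943 FPKM with overexpression and 1.03 and 1.12 FPKM in the controls. Just outside it was RAB19, with 0.457 and 0.832 FPKM with overexpression and 1.03 and 1.46 FPKM in the controls. Of the 46 members, 3 reached a mean of 1 FPKM in the control group alone, namely RAB27B, RAB3B and RAB42. The 18 RAB names outside the set had means of 0.00189 to 0.944 FPKM and include 2 pseudogenes.

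RAB proteins are the membrane address labels of the cell. Each is loaded with GTP by a guanine nucleotide exchange factor (GEF) on a particular compartment, recruits effectors such as tethers and motors there, and is switched off by a GTPase-activating protein (GAP). A lipid added by a geranylgeranyl transferase together with an escort protein anchors it in the membrane, and a dissociation inhibitor (GDI) takes the inactive form back into the cytosol. In epithelial cells RABs sort integrins, growth factor receptors and junction proteins, and RAB25 is known for its restriction to epithelia.

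Libraries held 15355030 and 16870325 counted reads with overexpression and 13681862 and 17860695 in the controls. Of 9 markers of squamous epithelium 8 had a mean of at least 1 FPKM, led by KRT5, a basal keratin. Of the markers of fibroblasts, immune cells and endothelium, 1 of 6, 1 of 6 and 1 of 4 reached 1 FPKM, which were COL1A1, CD14 and CDH5, the last with a mean of 6.75 FPKM. The 4 endothelial markers summed to 5.27 and 5.10 FPKM with overexpression and 8.81 and 8.23 FPKM in the controls. The 6 fibroblast markers summed to 2.93 and 3.51 FPKM with overexpression and 4.72 and 5.58 FPKM in the controls. Both sums were lower with overexpression, and their part in the results was not tested. In bulk RNA, a change in the makeup of a culture and a change per cell cannot be told apart. CCL20 had 15.2 and 11.3 FPKM with overexpression and 8.62 and 7.10 FPKM in the controls (log2 fold change 0.95, SE 0.21, edgeR adjusted p = 0.0143). Both overexpression libraries were above both controls, but with the offset for mRNA length used further on the log2 fold change was 0.06 (edgeR adjusted p = 0.916). With that offset the level of CCL20 gives no check of the labels. Nothing in the labels says that replicates came from separate cultures, so p-values measure the spread between these libraries, which may be technical. The overexpression pair differed more than the control pair, with a chi-square per gene of 51.8 and 8.49.

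Together the 46 genes made up 0.292% and 0.261% of all FPKM in the overexpression libraries, and 0.332% and 0.328% in the controls. As a share of counted reads they took 0.323% and 0.298% with overexpression and 0.320% and 0.321% in the controls. The late endosomal RAB7A, which directs fusion with lysosomes, was the highest member, with 101 and 114 FPKM with overexpression and 112 and 126 FPKM in the controls, and the groups overlapped. It was followed by RAB1B, which carries membrane from the endoplasmic reticulum to the Golgi, and by RAB10, which serves exocytosis to the plasma membrane. RAB1B had 59.3 and 69.5 FPKM with overexpression and 79.6 and 69.3 FPKM in the controls. RAB10 had 63.3 and 52.4 FPKM with overexpression and 69.5 and 67.7 FPKM in the controls. The overexpression values of RAB10 were both the lower ones, yet its log2 fold change was -0.04 (edgeR adjusted p = 0.844), because the test rescales the libraries and FPKM do not. In all, 15 members had a mean of at least 20 FPKM.

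**Figure D1:**
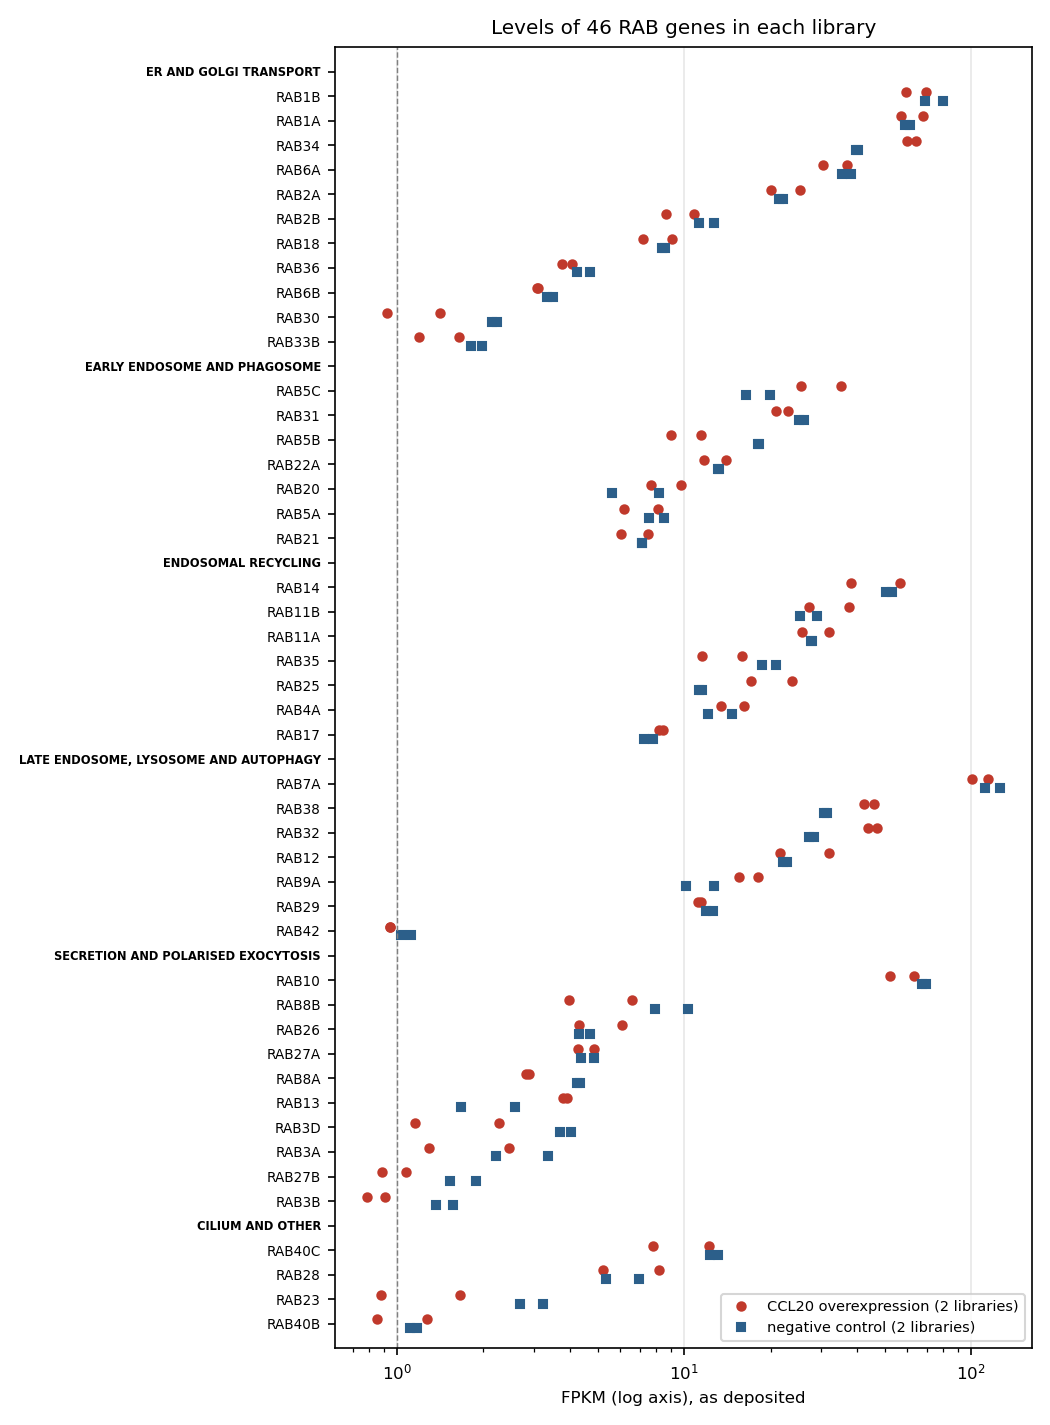
Deposited FPKM (log axis) of the 46 RAB genes, grouped by the compartment they serve, with 1 point per library (red circles, CCL20 overexpression; blue squares, negative control; dashed line, 1 FPKM). RAB7A reached 101 to 126 FPKM in the 4 libraries, RAB42 stood between 0.943 and 1.12 FPKM, and the groups are well separated for RAB34, RAB32 and RAB5B.

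With CCL20 overexpression 7 of the 46 RAB genes rose and 4 fell. The risers were RAB25, RAB13, RAB5C, RAB32, RAB34, RAB9A and RAB38, with 1.63- to 2.08-fold differences, and those that fell were RAB23, RAB3D, RAB30 and RAB5B, with 1.55- to 2.04-fold differences. These calls are from edgeR's quasi-likelihood test on TMM-scaled counts of 12168 genes, two-sided, at a Benjamini-Hochberg adjusted p under 0.05. Among all genes tested 16.5% were called higher and 15.7% lower, 32.2% in all, while among the RAB genes 15.2% and 8.70% were, so the shares of the family were close to and below the background. The median log2 fold change of the RAB genes was 0.08, and that of all genes tested was 0.00188. The other 35 members had log2 fold changes of -0.60 to 0.54 (edgeR adjusted p from 0.0667 to 0.995). The number of calls rested on the control pair, with 0 members called without control replicate 1 (edgeR adjusted p of the 11 from 0.0944 to 0.309) and 1 member, RAB13, without control replicate 2. Without overexpression replicate 1, 11 rose and 7 fell, and without overexpression replicate 2, 15 rose and 9 fell. The RAB shares in these fits were 23.9% and 15.2%, then 32.6% and 19.6%, where all genes had 30.8% and 31.5%, then 26.2% and 26.6%. In such fits the spread comes from the complete pair alone. On total counts without scaling factors the median of all genes moved to -0.20 and that of the RAB genes to -0.12, and 5 RAB genes were higher and 8 lower, with 1275 and 2963 of all genes.

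The direction went with the length of the mRNA. The 7 RAB genes that rose had mRNAs of 1110 to 1792 nt in GENCODE 29, the 4 that fell 2599 to 5588 nt, and the members not called 857 to 15546 nt. The coding part of RAB mRNAs is nearly of 1 size, 582 to 999 nt with a median of 647 nt, whereas their 3′ untranslated regions span 186 to 14615 nt. Across the 46 genes, all measured in the same 4 libraries, log2 fold change had a Spearman correlation of -0.59 with the length of the 3′ untranslated region and 0.06 with coding length. Over all 10572 tested coding genes these were -0.48 and -0.65. With mean FPKM the correlation of log2 fold change was 0.42 over the RAB genes and 0.31 over all tested coding genes. The replicates of 1 group also differed by length: for overexpression replicate 2 over replicate 1 the correlation with mRNA length was -0.50 over the RAB genes, and for control replicate 2 over replicate 1 it was -0.33. Over all tested coding genes these were weaker, at -0.30 and -0.15.

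**Figure D2:**
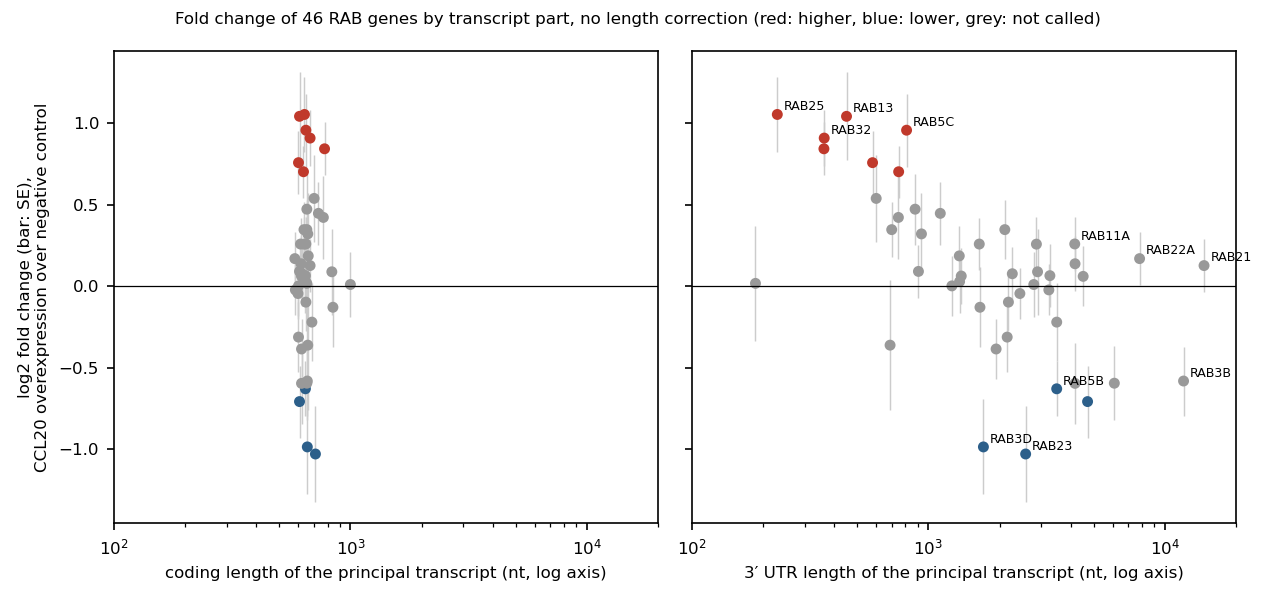
Log2 fold change (CCL20 overexpression over negative control, bars SE) of the 46 RAB genes against the length of the coding part (left) and of the 3′ untranslated region (right) of the principal transcript, both on log axes. Coding lengths lie between 582 and 999 nt, and the genes that rose (red) have 3′ regions of 230 to 809 nt, while RAB21 and RAB22A lie near 0 with the longest and third-longest.

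In 15 RAB genes with mRNAs under 2000 nt the median log2 fold change was 0.54, near the 0.67 of the 2810 coding genes in that range. In 18 genes of 2000 to 4000 nt it was 0.02, and in the 4247 coding genes of that range 0.02. In the 13 RAB genes over 4000 nt it was -0.02, where the 3515 coding genes of that range had -0.51. Among these 13, RAB5B and RAB30 fell, against 1403 of the 3515. The long RAB mRNAs thus had a higher median than the coding genes of like mRNA length, a description for which no test was made.

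A fit with an offset for mRNA length was therefore set beside the first one. It called 3 RAB genes, and all 3 were other genes: RAB11A, RAB21 and RAB22A were higher and 0 were lower, where 3.63% and 3.19% of 10572 coding genes were called higher and lower, 6.82% in all. At an unadjusted p under 0.05, 5 members (10.9%) were lower in that fit, near the 10.6% of all coding genes. None of the 11 genes called without the offset was called with it (edgeR adjusted p from 0.0811 to 0.724), and the 7 risers had log2 fold changes of 0.12 to 0.53. With the replicate number as a block beside the offset, RAB5C, RAB23 and RAB3D of these 11 were called (edgeR adjusted p = 0.0171, 0.0046 and 6.85e-05). In that fit 6 RAB genes were higher and 3 lower, beside 1102 and 964 of 10572 coding genes. Whether same-numbered libraries were paired is not shown. RAB genes had a median coding length of 647 nt and a median 3′ untranslated region of 1821 nt, while all tested coding genes had 1368 and 1005 nt, so an offset for coding length and untranslated length as separate terms was added after these results were seen. With it 0 RAB genes were higher and 2, RAB3D and RAB5B, were lower, where 1.80% and 2.75% of coding genes were called, 4.55% in all. At an unadjusted p under 0.05, 2 RAB genes (4.35%) were higher and 12 (26.1%) lower in this fit, where 12.9% and 10.9% of coding genes were. The 13 RAB genes over 4000 nt then had a median of -0.17, below the 0.01 of the coding genes in that range. The calls of RAB11A, RAB21 and RAB22A ended (log2 fold change 0.18, 0.11 and 0.10). The log2 fold change was negative in all 3 fits for the 4 genes that fell and positive in all 3 for the 7 that rose.

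**Figure D3:**
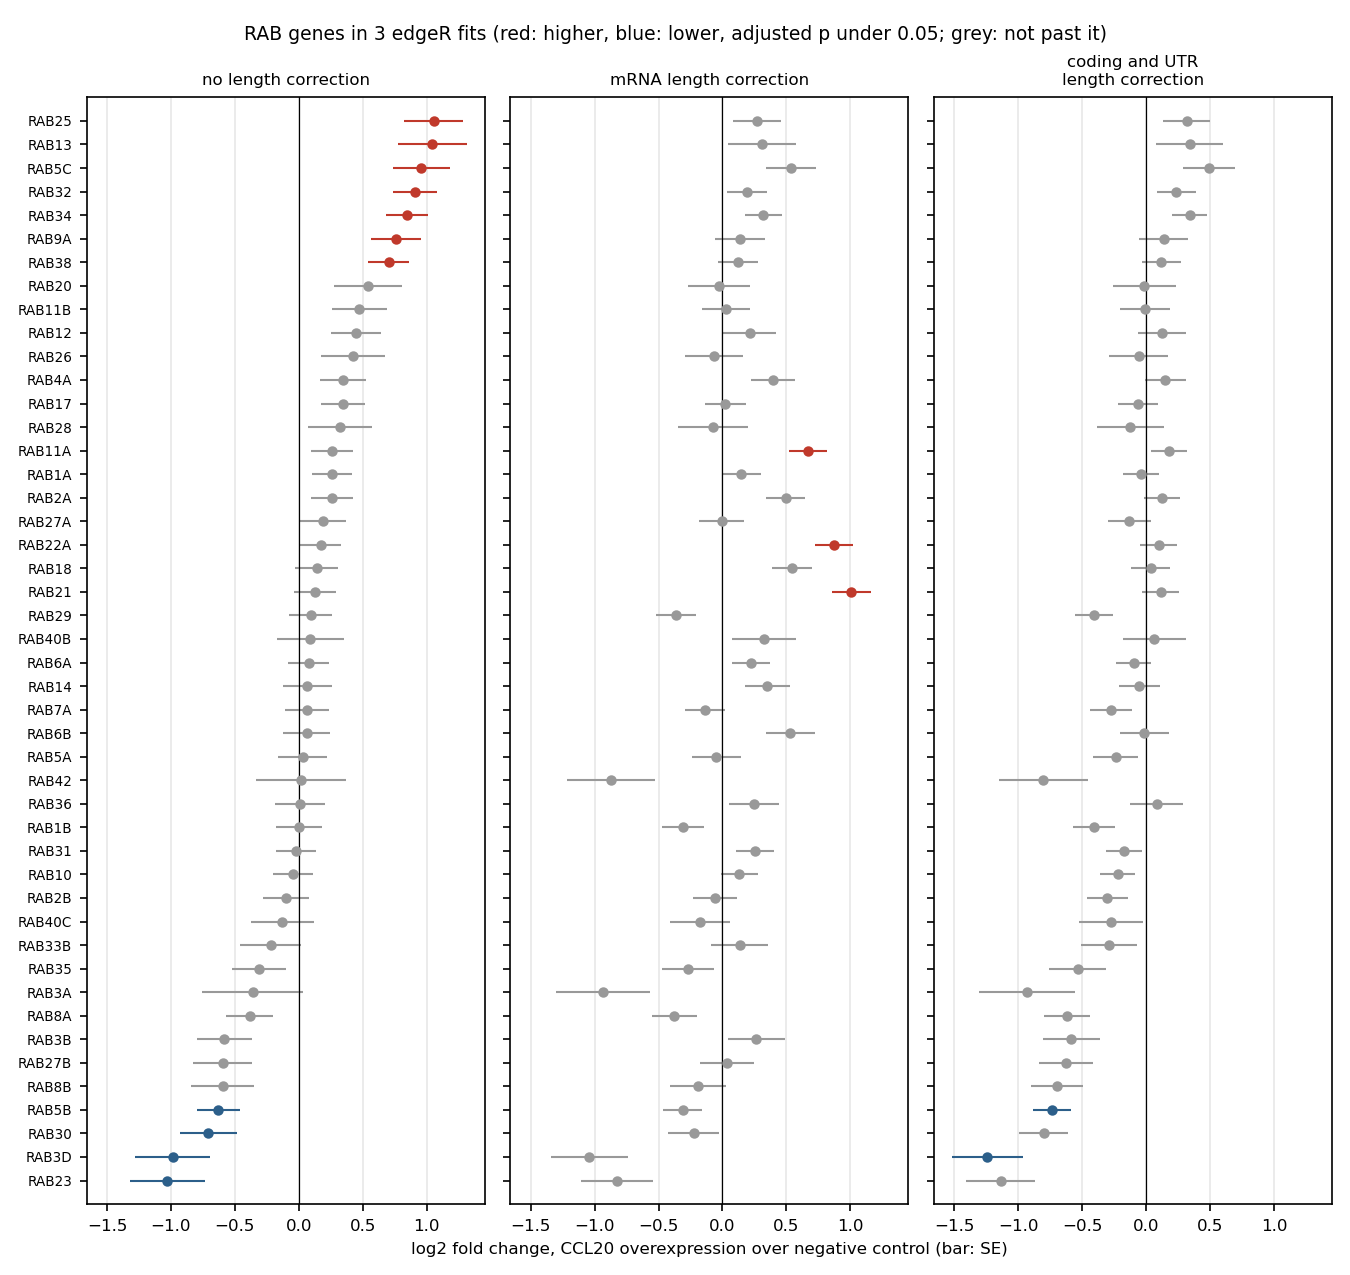
Log2 fold changes (CCL20 overexpression over negative control, bars SE) of the 46 RAB genes in 3 edgeR fits: without length correction, with an offset for mRNA length, and with an offset for coding and untranslated length. Red and blue mark genes higher and lower at an adjusted p under 0.05, which are 7 and 4, 3 and 0, and 0 and 2 in the 3 fits.

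Among the RABs of endosomal recycling, RAB25 rose and the other 6 members did not pass the test. RAB25 (ENSG00000132698; GRCh38 chromosome 1, 156061160 to 156070514, plus strand) is the epithelial relative of RAB11A and returns integrins to the cell surface. It had 17.1 and 23.7 FPKM with overexpression and 11.5 and 11.2 FPKM in the controls. Both overexpression libraries were above both controls, and overexpression replicate 2 was the highest (log2 fold change 1.05, SE 0.23, edgeR adjusted p = 0.0128). Its log2 fold change was 0.27 under the mRNA length offset (SE 0.19, edgeR adjusted p = 0.441). RAB11A (ENSG00000103769; GRCh38 chromosome 15, 65726054 to 65891991, plus strand), the central RAB of recycling endosomes, had 32.1 and 25.7 FPKM with overexpression and 27.6 and 27.8 FPKM in the controls. The groups overlapped (log2 fold change 0.26, SE 0.16, edgeR adjusted p = 0.245), and it was called with the mRNA length offset (0.67, SE 0.15, edgeR adjusted p = 0.0358) and not with separate terms. Without correction its log2 fold change was 0.37 without overexpression replicate 2 and 0.14 without overexpression replicate 1. Its mRNA of 4930 nt is over 4 times as long as the 1110 nt of RAB25. RAB14, which links the Golgi and endosomes, was the highest of this class, with 56.4 and 38.0 FPKM with overexpression and 50.6 and 52.8 FPKM in the controls, again with overlap.

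Of the early endosomal RABs, which direct the first fusion steps after uptake, RAB5C rose and RAB5B fell. RAB5C (ENSG00000108774; GRCh38 chromosome 17, 42124976 to 42155044, minus strand) had 25.6 and 35.3 FPKM with overexpression and 16.4 and 19.9 FPKM in the controls. The overexpression libraries were both higher (log2 fold change 0.96, SE 0.22, edgeR adjusted p = 0.0163). RAB5B (ENSG00000111540; GRCh38 chromosome 12, 55973913 to 55996683, plus strand) had 11.5 and 8.97 FPKM with overexpression and 18.02 and 18.3 FPKM in the controls, and both overexpression values were lower (log2 fold change -0.63, SE 0.17, edgeR adjusted p = 0.0256). RAB5A, the other early endosomal form, had a log2 fold change of 0.03 (edgeR adjusted p = 0.919). With the mRNA length offset RAB5C had 0.53 (edgeR adjusted p = 0.146) and RAB5B -0.31 (edgeR adjusted p = 0.265). With separate terms RAB5B was past the threshold (-0.73, edgeR adjusted p = 0.0388) and RAB5C was not (0.49, edgeR adjusted p = 0.188). The annotated exons of RAB5C share 28.8% of their length with another gene on the same strand that has no value here.

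The ratio of 2 genes within a library does not depend on how libraries are scaled, though it does depend on their length trend. The ratio of RAB5C to RAB5B was 2.23 and 3.93 with overexpression and 0.911 and 1.09 in the controls. RAB5B to RAB5A was 1.41 and 1.46 with overexpression and 2.12 and 2.42 in the controls. RAB25 to RAB11A was 0.532 and 0.923 with overexpression and 0.418 and 0.404 in the controls. RAB11B to RAB11A, by comparison, was 0.849 and 1.47 with overexpression and 0.916 and 1.04 in the controls, so these overlapped. The first 3 did not overlap between the groups, although in each of them the gene favoured by the difference has the shorter mRNA (1792 and 4331 nt for RAB5C and RAB5B, 2536 nt for RAB5A). With the mRNA length offset the difference in log2 fold change was 0.84 for RAB5C against RAB5B and -0.40 for RAB25 against RAB11A, so the second turned round. Other pairs differed without overlap in favour of the longer mRNA: RAB22A (8670 nt) to RAB31 (4055 nt) was 0.612 and 0.560 with overexpression and 0.499 and 0.527 in the controls, and RAB2B (2928 nt) to RAB2A (3848 nt) was 0.428 and 0.433 with overexpression and 0.574 and 0.528 in the controls. RAB5C to RAB5A, RAB32 to RAB38 and RAB27B to RAB27A also differed without overlap, each in favour of the shorter mRNA. Of 13 such pairs computed, 8 did not overlap. The share of other gene pairs without overlap was not computed, so this count has no background. An exact permutation test of 2 against 2 libraries cannot give a p below 0.333, so none was made. These pairs were chosen after their values had been seen.

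**Figure D4:**
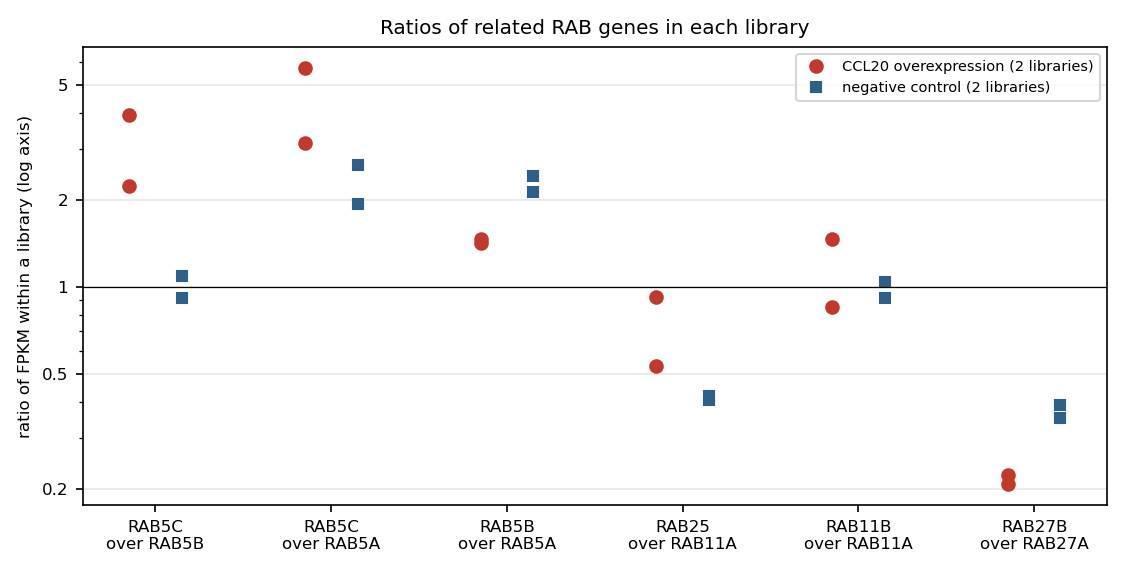
Ratio of FPKM of related RAB genes within each library (log axis; red circles, CCL20 overexpression; blue squares, negative control; 2 libraries each). RAB5C over RAB5B stood at 2.23 and 3.93 with overexpression and at 0.911 and 1.09 in the controls, while RAB11B over RAB11A overlapped.

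The FPKM ratios of RAB25 to RAB11A and of RAB5C to RAB5B differed between the groups without overlap, as did other pairs, whose sequences were left out. Sequence just before the RefSeq starts of RAB25, RAB11A, RAB5C and RAB5B is shown. It comes from RefSeq (GRCh38.p14; 38 of the 46 members had an entry), on the strand of each gene, 5′ to 3′, and leaves out bases that any exon of GENCODE 29 covers. The stretches end 0, 35, 119 and 36 bases before the RefSeq start of RAB25, RAB11A, RAB5C and RAB5B. That of RAB11A lies inside the GENCODE 29 span of the gene given above, far from its first base. Capitals mark a GC box (GGGCGG), an E-box (CACGTG), a CRE (TGACGTCA) or a CCAAT box (CCAAT) on either strand. In GRCh38.p14 they are chr1:156061010-156061159 for RAB25 (plus), chr15:65869306-65869455 for RAB11A (plus), chr17:42155109-42155239 for RAB5C (minus) and chr12:55973763-55973912 for RAB5B (plus).
RAB25: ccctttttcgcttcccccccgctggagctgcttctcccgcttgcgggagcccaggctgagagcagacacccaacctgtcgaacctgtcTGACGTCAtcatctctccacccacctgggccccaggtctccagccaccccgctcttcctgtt
RAB11A: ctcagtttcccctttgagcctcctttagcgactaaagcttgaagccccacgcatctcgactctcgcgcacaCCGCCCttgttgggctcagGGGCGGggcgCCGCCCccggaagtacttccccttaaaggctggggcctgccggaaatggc
RAB5C: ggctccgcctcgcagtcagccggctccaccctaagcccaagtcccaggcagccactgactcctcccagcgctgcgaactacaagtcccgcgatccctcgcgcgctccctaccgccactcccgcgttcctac
RAB5B: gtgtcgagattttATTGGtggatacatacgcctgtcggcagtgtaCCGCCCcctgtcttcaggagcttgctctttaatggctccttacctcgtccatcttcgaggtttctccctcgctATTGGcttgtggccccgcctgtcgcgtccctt

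The letters of the GC box, which SP1 factors bind, stood in the 250 bases before the start of 32 of the 38 RAB genes (84.2%) and of 42.3% of all 27305 starts, 1 per gene. Those of the E-box stood in 4 RAB genes, RAB21, RAB31, RAB4A and RAB5A (10.5%, against 6.49% of all starts). The full CRE letters stood in RAB25 alone among the 38 (2.63%, against 1.77%), and the CCAAT box in 10 (26.3%, against 33.0%). The 27305 starts were not limited to expressed coding genes, as the 38 were, so these shares are not a matched background. A match of letters is a description and not a bound site.

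RAB22A and RAB21, also early endosomal, were not called without correction and were higher with the mRNA length offset. An offset for exonic length over all genes called them higher too (edgeR adjusted p = 0.0383 and 0.0174), together with RAB34, and called RAB3D lower. RAB21 (ENSG00000080371; GRCh38 chromosome 12, 71754874 to 71800285, plus strand), which takes integrins into the cell, had 7.51 and 6.03 FPKM with overexpression and 7.12 and 7.12 FPKM in the controls, with overlap. Its log2 fold change was 0.13 (SE 0.17, edgeR adjusted p = 0.572) and 1.01 with the offset (SE 0.15, edgeR adjusted p = 0.0127); its annotated mRNA, 15546 nt, is the longest of the family. RAB22A (ENSG00000124209; GRCh38 chromosome 20, 58309696 to 58367507, plus strand), an early endosomal RAB that acts in recycling, had 14.04 and 11.7 FPKM with overexpression and 13.1 and 13.3 FPKM in the controls. Its log2 fold change was 0.17 (edgeR adjusted p = 0.434) and 0.87 with the offset (SE 0.15, edgeR adjusted p = 0.0165). With the offset and without control replicate 1, none of RAB11A, RAB21 and RAB22A was past the threshold (log2 fold change 0.64, 0.94 and 0.82), nor without control replicate 2 (0.70, 1.07 and 0.93).

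Late endosomal and lysosomal RABs held 3 of the 7 risers among 7 members, and 0 fell. All 3 have mRNAs under 2000 nt, and of the 2810 tested coding genes in that range 1436 were called higher and 48 lower. RAB32 and RAB38, close relatives that deliver cargo to lysosome-related organelles such as melanosomes, both rose. RAB32 (ENSG00000118508; GRCh38 chromosome 6, 146543693 to 146554965, plus strand) had 43.7 and 47.0 FPKM with overexpression and 28.4 and 27.3 FPKM in the controls (log2 fold change 0.91, SE 0.17, edgeR adjusted p = 0.00817). RAB38 (ENSG00000123892; GRCh38 chromosome 11, 88113242 to 88175467, minus strand) had 45.9 and 42.2 FPKM with overexpression and 30.8 and 31.5 FPKM in the controls (log2 fold change 0.70, SE 0.16, edgeR adjusted p = 0.0148). In both genes the overexpression libraries stood above the controls, and the replicates of each group lay close together. RAB9A (ENSG00000123595; GRCh38 chromosome X, 13689125 to 13710506, plus strand), which returns receptors from late endosomes to the trans-Golgi, had 18.1 and 15.5 FPKM with overexpression and 12.7 and 10.2 FPKM in the controls (log2 fold change 0.76, SE 0.19, edgeR adjusted p = 0.0210). The mRNA length offset left them at 0.19, 0.12 and 0.14 (edgeR adjusted p = 0.506, 0.696 and 0.724). The median mRNA of this class, 1465 nt, was the shortest of the 6 classes. RAB42, also in it, had a log2 fold change of 0.02 (edgeR adjusted p = 0.974), and RAB7A 0.06 (edgeR adjusted p = 0.800).

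In the class of the endoplasmic reticulum and Golgi RAB34 rose and RAB30 fell, and 9 of 11 members were not called. RAB34 (ENSG00000109113; GRCh38 chromosome 17, 28714281 to 28718429, minus strand), a Golgi RAB that also acts in forming the primary cilium, had 60.0 and 64.2 FPKM with overexpression and 39.6 and 40.4 FPKM in the controls. The groups were far apart relative to the replicates (log2 fold change 0.84, SE 0.16, edgeR adjusted p = 0.00872). Under the mRNA length offset it had 0.32 (edgeR adjusted p = 0.228). RAB30 (ENSG00000137502; GRCh38 chromosome 11, 82973133 to 83071923, minus strand), a RAB of the Golgi, had 1.41 and 0.922 FPKM with overexpression and 2.24 and 2.13 FPKM in the controls (log2 fold change -0.71, SE 0.22, edgeR adjusted p = 0.0417). Without overexpression replicate 2, the lower one, its log2 fold change was -0.47, and it was -0.23 with the mRNA length offset (edgeR adjusted p = 0.538) and -0.80 with separate terms (edgeR adjusted p = 0.0558). RAB1B, the highest of this class, had a log2 fold change of 0.00189 (SE 0.18, edgeR adjusted p = 0.995), and over 25% of its exonic length is shared with another gene.

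Of 10 RABs of secretion and polarised exocytosis RAB13 rose and RAB3D fell, and 7 of the 10 had a negative log2 fold change (class median -0.37). That median was -0.04 with the mRNA length offset and -0.60 with separate terms, and 6 of the 7 were called in none of these fits. On total counts, where 2963 of 12168 genes were called lower, RAB8A, RAB8B, RAB27B and RAB3B were lower too. With the replicate block RAB8B, RAB27B and RAB3B were lower, among 2918 of all genes. With the block and the mRNA length offset RAB3A was lower, among 964 of 10572 coding genes. RAB13 (ENSG00000143545; GRCh38 chromosome 1, 153981617 to 153986358, minus strand), which brings junction proteins to the epithelial surface, had 3.91 and 3.77 FPKM with overexpression and 1.67 and 2.58 FPKM in the controls. The overexpression libraries were both higher (log2 fold change 1.04, SE 0.27, edgeR adjusted p = 0.0223). Under the mRNA length offset it had 0.31 (edgeR adjusted p = 0.527). RAB3D (ENSG00000105514; GRCh38 chromosome 19, 11322046 to 11346270, minus strand), which sits on secretory granules, had 2.27 and 1.15 FPKM with overexpression and 4.04 and 3.70 FPKM in the controls. Both overexpression values were below the controls and differed from each other (log2 fold change -0.99, SE 0.29, edgeR adjusted p = 0.0351). Its log2 fold change was -1.49 without overexpression replicate 1 and -0.61 without overexpression replicate 2. RAB3D hardly moved with length correction, at -1.04 with the mRNA length offset (edgeR adjusted p = 0.0811) and -1.24 with separate terms (edgeR adjusted p = 0.0479). Its relatives RAB3A and RAB3B had -0.36 and -0.58 without correction. With the mRNA length offset they had -0.93 and 0.27, and with separate terms -0.93 and -0.58. Neither was called in any of these fits. In the same order of fits RAB27B had -0.60, 0.04 and -0.62.

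In the small remaining class RAB23 (ENSG00000112210; GRCh38 chromosome 6, 57186992 to 57222314, minus strand), a cilium-linked RAB that restrains Hedgehog signalling, fell. It had 1.65 and 0.878 FPKM with overexpression and 3.23 and 2.67 FPKM in the controls, with no overlap (log2 fold change -1.03, SE 0.29, edgeR adjusted p = 0.0313). Without overexpression replicate 2 the log2 fold change was -0.67. The corrected values were -0.83 with the mRNA length offset (edgeR adjusted p = 0.123) and -1.14 with separate terms (edgeR adjusted p = 0.0533). Of its annotated exonic length 57.7% lies opposite exons of BAG2, and strand use in counting is not given, so its value is uncertain. BAG2 had a log2 fold change of 0.31 (edgeR adjusted p = 0.221), 0.89 with the mRNA length offset (edgeR adjusted p = 0.0205) and 0.26 with separate terms (edgeR adjusted p = 0.377). RAB40C, a substrate receptor of ubiquitin ligases, was the highest of the class, with 7.77 and 12.2 FPKM with overexpression and 12.3 and 13.1 FPKM in the controls (log2 fold change -0.13, edgeR adjusted p = 0.706).

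Among the proteins that load, switch off or use RABs, the lists of GEFs, GAPs and effectors each had more lower than higher genes. Of 37 GEFs tested 2 were higher and 17 lower. Their median log2 fold change was -0.54, and their median mRNA, 4655 nt, was longer than the 2741 nt of the RAB genes. Of 34 GAPs 1 was higher and 10 lower (median -0.34), and of 52 effectors and tethers 2 were higher and 17 lower (median -0.25). Of 10 genes of GDI, escort and prenylation 2 were higher and 1 lower (median 0.25), and of 13 subunits of TRAPP, the exchange complex of RAB1 and RAB11, 5 were higher and 4 lower (median 0.17). All genes tested had 16.5% higher and 15.7% lower. With the mRNA length offset the GEFs had 2 higher and 3 lower, the GAPs 0 and 1, the effectors 2 and 1, the prenylation genes 0 and 0 and TRAPP 1 and 2, against 3.63% and 3.19% of coding genes. With separate terms these counts were 3 and 2, 1 and 1, 2 and 0, 0 and 0, and 0 and 2.

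**Figure D5:**
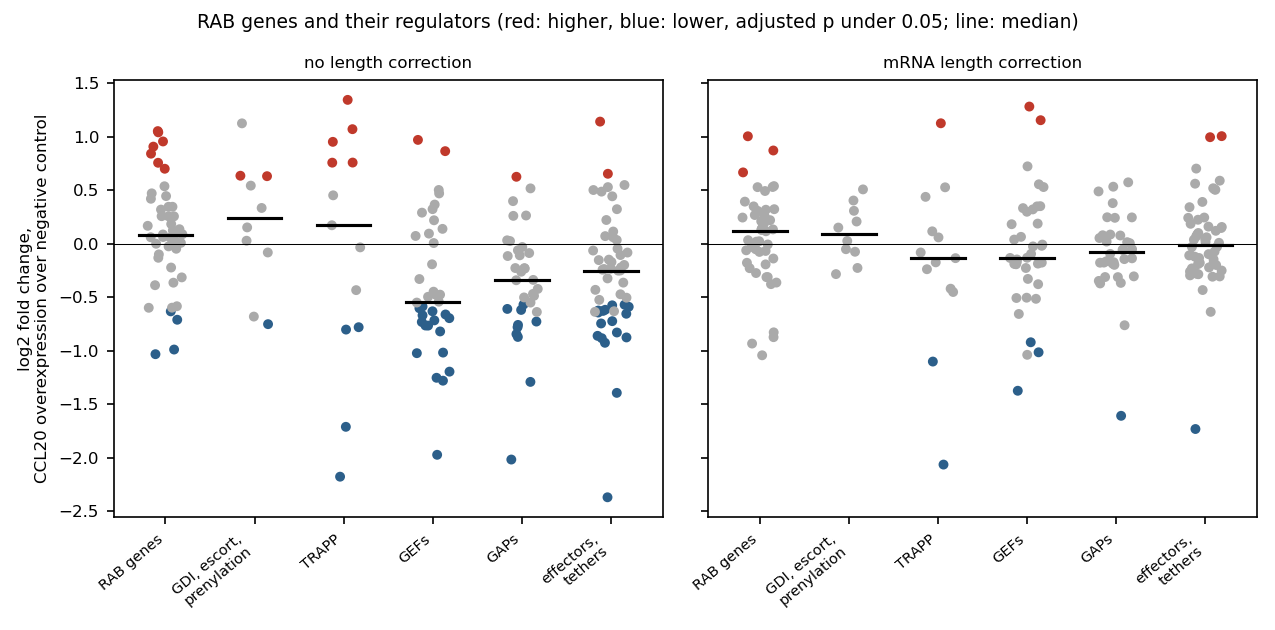
Log2 fold changes (CCL20 overexpression over negative control) of RAB genes and 5 lists of their regulators without (left) and with (right) an offset for mRNA length; each point is a gene, lines are medians, red and blue are higher and lower at an adjusted p under 0.05. The GEF median stood at -0.54 without and at -0.13 with the offset.

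The TRAPP complex held changes in both directions. TRAPPC6B, a small subunit, had 0.618 and 0.301 FPKM with overexpression and 2.50 and 2.24 FPKM in the controls (log2 fold change -2.17, edgeR adjusted p = 0.00494). It reached a mean of 1 FPKM in the control group alone, and had 43 and 23 reads with overexpression. TRAPPC10, a subunit of the form that acts on RAB11, had 1.49 and 1.25 FPKM with overexpression and 5.38 and 4.90 FPKM in the controls (log2 fold change -1.71, edgeR adjusted p = 0.00433). Both were also lower with the mRNA length offset (-2.06 and -1.10, edgeR adjusted p = 0.0141 and 0.0125) and with separate terms (-2.45 and -0.82, edgeR adjusted p = 0.0156 and 0.0357). TRAPPC2L rose, with 15.4 and 24.8 FPKM with overexpression and 8.25 and 10.1 FPKM in the controls (log2 fold change 1.35, edgeR adjusted p = 0.00936). It was past the threshold with the mRNA length offset (1.13, edgeR adjusted p = 0.0338) and not with separate terms (0.91, edgeR adjusted p = 0.0929).

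Among exchange factors RGP1, which with RIC1 activates RAB6, fell, with 1.96 and 1.05 FPKM with overexpression and 7.23 and 6.22 FPKM in the controls (log2 fold change -1.97, edgeR adjusted p = 0.00434). It was lower with the mRNA length offset too (-1.37, edgeR adjusted p = 0.0158) and with separate terms (-1.72, edgeR adjusted p = 0.0156). DENND4C, an exchange factor for RAB10, and SMCR8, a partner of C9orf72, fell by 1.25 and 1.19 on the log2 scale and were not past the threshold with the mRNA length offset (edgeR adjusted p = 0.0520 and 0.108). Chosen after their values were seen, DENND2A and DENND6B, DENN-domain exchange factors, were the 2 higher GEFs (0.97 and 0.87, edgeR adjusted p = 0.0155 and 0.0277). They were called higher with the mRNA length offset (1.16 and 1.28) and with separate terms (1.16 and 1.29) too, and DENND1C was lower in all 3 fits (-1.02, -1.01 and -1.01). Of the GAPs TBC1D14, a RAB11-binding protein that acts in autophagy, had 0.908 and 0.788 FPKM with overexpression and 4.11 and 3.79 FPKM in the controls (log2 fold change -2.01, edgeR adjusted p = 0.00433). TBC1D14 reached a mean of 1 FPKM in the control group alone. It was lower as well with the mRNA length offset (-1.61, edgeR adjusted p = 0.00787) and with separate terms (-1.52, edgeR adjusted p = 0.0156). TBC1D2B and the RAB10 GAP TBC1D4 fell by 1.29 and 0.87 and were not past the threshold with the offset (edgeR adjusted p = 0.0622 and 0.303).

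The effector with the largest statistic was RAB11FIP1, which binds RAB11 and RAB25 on recycling endosomes. It had 0.556 and 0.179 FPKM with overexpression and 2.26 and 2.04 FPKM in the controls (log2 fold change -2.37, SE 0.40, edgeR adjusted p = 0.00622). RAB11FIP1 reached a mean of 1 FPKM in the control group alone, and had 82 and 29 reads with overexpression. It was lower with the mRNA length offset (-1.73, edgeR adjusted p = 0.0303), and with separate terms it was not past the threshold (-1.46, edgeR adjusted p = 0.0549). MYO5B, the myosin motor of RAB11 vesicles, and MYO5A, the motor that RAB27A recruits to melanosomes, fell by 1.39 and 0.92 and with the offset were not past it (-0.63 and -0.11, edgeR adjusted p = 0.206 and 0.717). MYO5B too reached a mean of 1 FPKM in the control group alone (1.75 FPKM, against 0.573 FPKM with overexpression). In the prenylation machinery the escort protein gene CHM fell (log2 fold change -0.75, edgeR adjusted p = 0.0274), and RABGGTA, the alpha subunit of the RAB geranylgeranyl transferase, and RABIF, a chaperone of RABs, rose (0.64 and 0.63, edgeR adjusted p = 0.0433 and 0.0472). None of these 3 was past the threshold with the mRNA length offset (edgeR adjusted p = 0.385, 0.223 and 0.150).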

How the data were processed

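Counts and FPKM per gene were deposited by the authors for each of 4 libraries. Per the submitters' processing notes HISAT2 (no version), HTSeq 0.13.5 and GRCh38 were used; the sources used here name no annotation, trimming or strand setting. The deposited counts are unscaled whole reads. The FPKM deposited by the authors equal that count over a gene length and the library total, checked on all 29437 genes. All identifiers matched GENCODE 29, which gave positions and lengths (median of the principal coding transcripts).

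The 12168 genes averaging 1 FPKM or more were tested with edgeR 4.0.16 in R 4.3.3 (TMM, glmQLFit, glmQLFTest). SE is the log2 fold change over the root of F. Length offsets came from natural splines (5 degrees of freedom) of each library's deviation in log2 CPM (prior count 2), over 10572 coding genes. DESeq2 1.42.0, limma 3.58.1, other scalings and filters, a replicate block and omitting single libraries were alternatives. The members and the lists were chosen with earlier results of these data known. Named by rule were the highest member of each class, and members called in either of the first pair of fits (at most 5 a class). Those next to the limit of 1 FPKM, CCL20, and up to 3 called genes of each regulator list were also named by rule. RAB5A, RAB11B, RAB3A, RAB3B, RAB31, RAB2A, RAB2B, RAB8A, RAB8B, RAB27A, RAB27B, BAG2, DENND2A, DENND6B and DENND1C were named after their values were seen. Exons of 23 of the 46 members share bases with another annotated gene. Strand is not given, so such values are uncertain. RAB6A has near-identical copies, so its reads could be split.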

Additional observations from a re-analysis of the deposited data

How the results depend on the processing

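Of the 11 RAB genes called, all were called alike with RLE or upper-quartile factors, DESeq2 (7 higher, 4 lower), no filter and coding genes alone. None changed sign in any alternative that gave a value, except RAB9A, which turned with mRNA length correction without overexpression replicate 1 or control replicate 2; at 5 FPKM 7 of the 11 had a value. Length and the control libraries set the limits: exonic length correction gave 3 RAB genes higher and 1 lower (1211 and 721 of all genes), mRNA length correction 3 and 0 (384 and 337), and coding and untranslated length 0 and 2 (190 and 291). A mean of at least 5 FPKM left 31 members with 6 higher and 1 lower, beside 1345 higher and 1275 lower of 6955 genes. An adjusted p under 0.01 gave 2 and 0 RAB genes and 705 and 615 of all genes. One under 0.1 gave 7 lower RAB genes, a count given here without that of all genes. Total counts gave 8 lower RAB genes and 1275 higher and 2963 lower genes in all, and did not call RAB38 and RAB9A. With limma, log2(FPKM + 1) and log2(FPKM + 0.1) gave 1245 and 1176 higher genes. Neither called RAB9A or RAB30, and the second did not call RAB38. With filterByExpr RAB30 was not called. The median over RAB genes was -0.12 on total counts, -0.10 and -0.12 with limma at the larger and smaller pseudocount, 0.13 without a filter, 0.14 with filterByExpr, -0.0031 with exonic, 0.12 with mRNA, and -0.0777 with coding and untranslated length correction.

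Omitting 1 library gave 0 to 15 RAB genes higher and 0 to 9 lower, 318 to 3742 genes higher and 332 to 3837 lower in all, and a RAB median of 0.0963 to 0.163. With mRNA length correction these were 0 to 12, 0 to 6, 38 to 2542, 95 to 2200 and 0.0503 to 0.131; without control replicate 2 alone 50 and 129 of all genes were called.

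Replicate numbers were shared between the groups, and deviations of same-numbered libraries correlated at 0.265, but 2 pairs do not show a pairing. The replicate block gave 10 RAB genes higher and 7 lower, with 2840 of all genes higher and 2918 lower. With mRNA length correction and the block 6 and 3 RAB genes were called, RAB5C, RAB23 and RAB3D of the first 11 among them, 1102 and 964 of all genes, with a RAB median of 0.12.

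Among the members named by the rule above, the other changes of sign were in those not called in the first fit. Members outside that rule changed sign too. With mRNA correction RAB3B, for example, went from -0.58 to 0.27, RAB31 from -0.02 to 0.25 and RAB5A from 0.03 to -0.05. The members named by the rule are listed next. RAB1B had -4.88e-05 with RLE factors, -4.11e-05 with DESeq2, -0.208 on total counts, -0.207 and -0.21 with limma, -0.108 at 5 FPKM, -0.00403 with the block, -0.453, -0.31 and -0.405 with exonic, mRNA and separate-term correction, -0.31 with mRNA correction and block, and -0.169 to 0.155 with a library omitted. RAB14 had -0.131 on total counts, -0.155 and -0.158 with limma, -0.0423 at 5 FPKM, -0.0173 and -0.054 with exonic and separate-term correction, and -0.192 to 0.283 with a library omitted. RAB7A had -0.146 on total counts, -0.145 and -0.146 with limma, -0.0461 at 5 FPKM, -0.323, -0.136 and -0.274 with the corrections, -0.137 with mRNA correction and block, and -0.0827 to 0.191 with a library omitted. RAB42 had -0.188 on total counts, -0.0928 and -0.168 with limma, -0.415, -0.871 and -0.802 with the corrections, -0.872 with mRNA correction and block, and -0.0423 to 0.0856 with a library omitted. RAB21 and RAB22A had -0.0737 and -0.0319 on total counts, -0.0708 and -0.0344 with limma at a pseudocount of 1, and -0.0809 and -0.0371 at 0.1. RAB10 had 0.00605 without a filter, 0.0118 with filterByExpr, 0.131 with mRNA correction, 0.13 with the block added, and -0.137 to 0.0419 with a library omitted. RAB40C had -0.551 to 0.191 with a library omitted. The cause of these changes was not tested. Counts of 73 to 235 reads for RAB23 limit its precision, and the SE of members ran from 0.156 to 0.398.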
